A study of Arabidopsis thaliana with 9 samples.

Results

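The genes described here are those with their highest transcript level in seedlings of the Arabidopsis mutant epcr1/2. A gene was included when each of the 3 epcr1/2 libraries was at least 2 times the highest of the 6 arid2/3/4 and WT libraries, and the epcr1/2 mean was 2 FPKM or more. FPKM expresses a transcript level relative to transcript length and to the number of mapped fragments. The rule left out 2 named loci and found 143 of the 28117 genes in the table. The comparisons of epcr1/2 with arid2/3/4 and with WT chose these genes, so their values there are given as a description without a test.

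Seedlings 10 days old were grown on plates with 16 h of light and 8 h of dark at 22 °C, and messenger RNA was sequenced from 1 g samples. The groups were epcr1/2, mutated in EPCR1 and EPCR2, which encode proteins related to Enhancer of Polycomb, arid2/3/4, mutated in ARID2, ARID3 and ARID4, which encode proteins with an ARID DNA-binding domain, and wild type (WT), with 3 libraries each. The labels name no separate cultures for the libraries, so a p-value here speaks only of the variation among these libraries, part of which may be technical. The alleles are not given in the sources used here. A seedling holds root, leaf and shoot tip together, so more cells of a type and more RNA per cell cannot be told apart in any result below.

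EPCR and ARID proteins are subunits of the PEAT complexes, which also hold PWWP and TRB proteins and are known in Arabidopsis for the silencing of heterochromatin through histone deacetylation. Enhancer of Polycomb proteins of yeast and animals belong to a histone acetyltransferase complex, NuA4. TRB proteins are known to bind the telobox, a short motif found in telomeres and in many promoters.

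The targeted gene EPCR1 was at 0.344, 0.514 and 1.08 FPKM in epcr1/2, against 13.4, 12.6 and 18.3 FPKM in arid2/3/4 and 11.8, 10.5 and 16.4 FPKM in WT. EPCR2 was at 10.1, 10.4 and 12 FPKM in epcr1/2, against 8.36, 6.99 and 11.8 FPKM in WT, so its transcript level does not check its mutation. In arid2/3/4, ARID2 was at 2.12, 2.15 and 2.06 FPKM, against 22.5, 20.1 and 22.5 FPKM in WT, and ARID3 and ARID4 were also below WT in every library. Within each genotype, replicates 1 and 2 had nearly the same profile (Pearson r of 0.994 to 0.995 across genes on the log2 scale), and replicate 3 stood apart (0.835 to 0.883). A rough estimate of depth from the smallest values put replicates 1 and 2 at 17 to 24.6 M fragments and replicate 3 of each genotype at 49.1 to 59.0 M. Leaf photosynthesis markers summed to 10983 to 25480.2 FPKM in epcr1/2, 13373 to 27361 FPKM in arid2/3/4 and 40277 to 45775 FPKM in WT, and 4 of 7 fell in epcr1/2 against WT by limma (adjusted p under 0.05), or 7 with the replicate number as a block. Root markers summed to 53.7 to 104 FPKM in epcr1/2, 47.4 to 109.8 FPKM in arid2/3/4 and 101 to 161 FPKM in WT. Of the 12 tested, 7 fell in epcr1/2 against WT and 2 rose. In arid2/3/4 against WT, 3 leaf markers (7 with the block) and 6 root markers fell. Over all tested genes 17.8% fell in epcr1/2 and 12% in arid2/3/4 against WT, or 31.9% and 25.7% with the block. Pollen markers summed to 0.0683 FPKM at most in any library, with MGH3 at 0 in all 9. The part of leaf and root RNA in the results was not tested.

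The 143 genes fell into 128 that were above 0 in all 3 epcr1/2 libraries and 15 that were listed at 0 in at least 1 of them. The 15 met the rule because every arid2/3/4 and WT library was also listed at 0. Of these, 13 had a value in epcr1/2 replicate 3 alone, AT5G35069 in replicate 1 alone (21.2 FPKM), and AT2G46995 in replicates 1 and 3 (1.32 and 9.38 FPKM). They comprised 4 tRNA genes, 4 miRNA precursors (MIR156f, MIR166f, MIR168a and MIR777), 1 snoRNA gene and 6 protein-coding genes, with annotated transcripts of 71 to 280 bases. A value in a single library at such lengths gives no replicate support, and these 15 genes enter no test and none of the counts over the 128 genes below.

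The other 128 genes comprised 127 protein-coding genes and the U12 snRNA gene of the minor spliceosome, with a median transcript length of 1346.5 bases. All 128 passed the filter on low values of 0.5 FPKM in at least 3 libraries, which their epcr1/2 level had to satisfy. Their mean levels ranged from 2.12 to 5106 FPKM in epcr1/2 (median 13.4), from 0.016 to 1687 FPKM in arid2/3/4 (median 2.76) and from 0 to 1158 FPKM in WT (median 1.66). In 25 of them every WT library was under 0.5 FPKM, and in 10 every arid2/3/4 and WT library was. The ratio of the lowest epcr1/2 value to the highest value in the other genotypes ranged from 2.01 to 50.6 with a median of 2.47. It was under 3 for 92 genes, from 3 to under 5 for 19, and 5 or more for 17. Most of the genes therefore lay close to the threshold. The 4 just inside it were AT2G32280 (2.014), AGL15 (2.018), PUM9 (2.021) and GRP19 (2.032), and the 4 just outside were AT3G05152 (1.995), AT1G75880 (1.979), the nitrate transporter gene NRT2:1 (1.975) and AT4G31615 (1.969). On the level, ENODL3 (2.121 FPKM) and AT5G26130 (2.126) were just inside and AT3G28600 (1.952) and AT1G32910 (1.83) just outside.

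**Figure D1:**
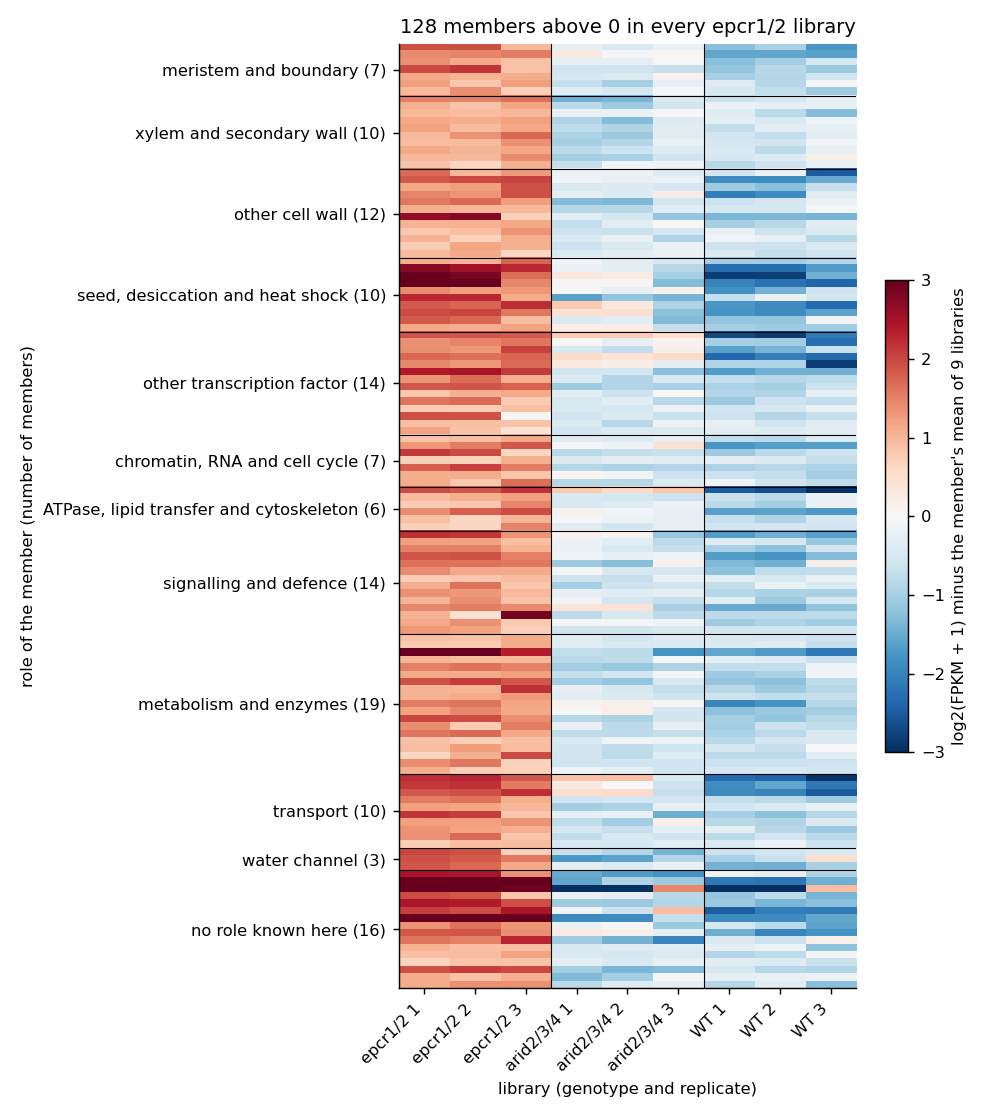
Each row is 1 of the 128 genes and each column 1 library, and the colour is log2(FPKM + 1) minus the gene's mean over the 9 libraries, saturated at 3 in either direction. Rows are grouped by role, and the pale or red arid2/3/4 cells beside blue WT cells show genes that were also higher in arid2/3/4 than in WT.

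Sequences before 4 of the genes are shown first because 2 of them hold the telobox, the motif that TRB proteins bind, and the other 2 belong to a pair of genes that lie 1 gene apart, point away from each other and hold the RY motif CATGCA of seed promoters. KNATM encodes a KNOX protein without a homeodomain, and AGL15 a MADS-box factor known in embryos. BGLU19 encodes a beta-glucosidase and AT3G21380 a mannose-binding lectin. The letters are the 250 bases before the annotated start of each gene, on the gene's own strand, from the RefSeq TAIR10.1 assembly, with the motif in capitals on whichever strand it lies (the reverse complement of CATGCA is TGCATG). Only the telobox is in capitals for KNATM and AGL15, though the AGL15 sequence also holds CATGCA, left in lower case.
KNATM (chr1:5085264-5085513, minus strand): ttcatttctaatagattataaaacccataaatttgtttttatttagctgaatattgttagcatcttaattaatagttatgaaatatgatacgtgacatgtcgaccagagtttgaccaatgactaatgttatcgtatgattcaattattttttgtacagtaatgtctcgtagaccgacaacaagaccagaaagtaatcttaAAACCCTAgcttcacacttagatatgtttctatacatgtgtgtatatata
AGL15 (chr5:4450959-4451208, minus strand): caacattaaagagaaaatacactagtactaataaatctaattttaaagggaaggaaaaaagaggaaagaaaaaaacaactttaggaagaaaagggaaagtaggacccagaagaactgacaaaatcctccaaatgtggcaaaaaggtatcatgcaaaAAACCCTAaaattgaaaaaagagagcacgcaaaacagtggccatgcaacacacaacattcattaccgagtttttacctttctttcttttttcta
BGLU19 (chr3:7527678-7527927, minus strand): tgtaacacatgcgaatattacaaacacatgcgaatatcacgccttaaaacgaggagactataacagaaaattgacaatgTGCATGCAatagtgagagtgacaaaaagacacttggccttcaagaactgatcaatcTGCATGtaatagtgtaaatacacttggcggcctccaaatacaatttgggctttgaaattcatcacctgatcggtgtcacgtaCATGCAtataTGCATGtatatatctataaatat
AT3G21380 (chr3:7527931-7528180, plus strand): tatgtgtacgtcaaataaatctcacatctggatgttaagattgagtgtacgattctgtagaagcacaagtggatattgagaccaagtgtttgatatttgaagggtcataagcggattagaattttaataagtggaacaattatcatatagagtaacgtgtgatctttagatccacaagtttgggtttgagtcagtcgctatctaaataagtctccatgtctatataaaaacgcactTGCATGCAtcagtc

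The telobox (AAACCCTA) was searched on both strands in the 300 bases around each start (250 before, 50 after). It was found in 8 of the 128 promoters (6.25%) and in 6.21% of 27838 promoters of the table, so its share was that of all promoters. The 8 were those of KNATM, AT1G47980, IPMI1, JLO, AT4G23590, AGL15, IRX6 and CUC2. In the 250 bases before the start alone it was found in 4 (3.12%, against 4.53% of all). The motif CATGCA was found in 22 of the 128 (17.2%) against 10.0% of all promoters, TATAAA in 66.4% against 52.4%, and the W-box core TTGAC in 41.4% against 50.5%. The site TGGGCC was in 15.6% of both sets, the G-box CACGTG in 7.81% against 7.69%, ACGTG, which lies within it, in 28.9% against 26.8%, GCCGCC in 1.56% against 2.59%, and TGACAG in 5.47% against 7.04%. These shares are descriptions of the letters and were not tested.

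Genes of the shoot meristem and of organ boundaries formed a group of 7. STM, a homeobox factor that keeps meristem cells undifferentiated, was at 38.9, 37.8 and 19.4 FPKM in epcr1/2, 7.82, 6.74 and 8.14 FPKM in arid2/3/4, and 3.38, 4.25 and 2.09 FPKM in WT. CLV3, the peptide gene that marks stem cells of the shoot tip, was at 8.04, 9.14 and 3.09 FPKM in epcr1/2, 0.517, 0.514 and 0.41 FPKM in arid2/3/4, and 0, 0.276 and 0.0533 FPKM in WT. For both genes epcr1/2 replicate 3 was the lowest of its genotype, and no arid2/3/4 library overlapped WT. CUC2, a NAC factor that sets organ boundaries, was at 3.91, 5.54 and 3.1 FPKM in epcr1/2, 1.01, 0.75 and 1.48 FPKM in arid2/3/4, and 0.775, 0.483 and 0.192 FPKM in WT. Its relative CUC3 was at 6.85, 6.23 and 6.71 FPKM in epcr1/2, 1.55, 1.65 and 2.91 FPKM in arid2/3/4, and 0.783, 0.941 and 1.37 FPKM in WT. The arid2/3/4 and WT values overlapped for CUC2 and not for CUC3. AIL7, an AP2-type factor related to AINTEGUMENTA, averaged 18.4 ± 0.902 FPKM in epcr1/2, 6.48 ± 0.765 FPKM in arid2/3/4 and 1.34 ± 0.0777 FPKM in WT (SD, n = 3 each). ERF12 averaged 10.3 ± 1.85, 3.51 ± 0.468 and 1.74 ± 0.713 FPKM in epcr1/2, arid2/3/4 and WT. KNATM was at 5.3, 3.66 and 5.32 FPKM in epcr1/2, with overlapping values in arid2/3/4 (0.625, 0.327 and 1.24 FPKM) and WT (1.04, 0.463 and 1.56 FPKM).

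A list of 24 meristem and boundary genes, of which STM, CLV3, CUC2 and CUC3 are members, was read around them. The test was limma on log2(FPKM + 1) with Benjamini-Hochberg adjustment over 21168 genes, a call was an adjusted p under 0.05, and errors of log2 fold changes are standard errors. The 20 genes of the list that the rule did not choose were tested in epcr1/2 against WT, where 9 rose and 11 were not called. With the replicate number as a block 11 rose and CLV1, the receptor gene of the CLV3 peptide, fell (log2 fold change -0.85, limma adjusted p = 0.00171 with the block and 0.0743 without). The block called 19.3% of all tested genes higher and 31.9% lower. By this test 10.8% of all tested genes rose and 17.8% fell (2277 and 3762 genes). The split was 3210 and 3121 with median centring and 2861 and 3261 with quantile normalization. The median log2 fold change of those 20 was 0.79, beside -0.12 over all tested genes. CUC1, the third boundary gene of its family, was at 12, 13.1 and 6.38 FPKM in epcr1/2, against 0.556, 0.471 and 0.173 FPKM in WT (log2 fold change 2.99, limma adjusted p = 0.000293). It missed the rule because arid2/3/4 reached 5.68, 4.59 and 3.98 FPKM. GA2OX2, a gibberellin-inactivating enzyme gene, rose by 2.44 (limma adjusted p = 0.000601), LOB by 2.34 (0.000102) and KNAT6, a homeobox gene related to STM, by 1.94 (0.00248). WUS, the homeobox gene of the organizing centre, was at 1.72, 2.19 and 0.888 FPKM in epcr1/2, against 0, 0.0423 and 0 FPKM in WT (1.32, limma adjusted p = 0.00326). In arid2/3/4 against WT, where 8.78% of all tested genes rose, 5 of the 20 rose, among them CUC1 (2.04, limma adjusted p = 0.00198), GA2OX2 (1.56, 0.00558) and LOB (1.17, 0.00211). With the replicate number as a block, 8 rose and 3 fell in arid2/3/4, beside 19.4% and 25.7% of all tested genes.

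**Figure D2:**
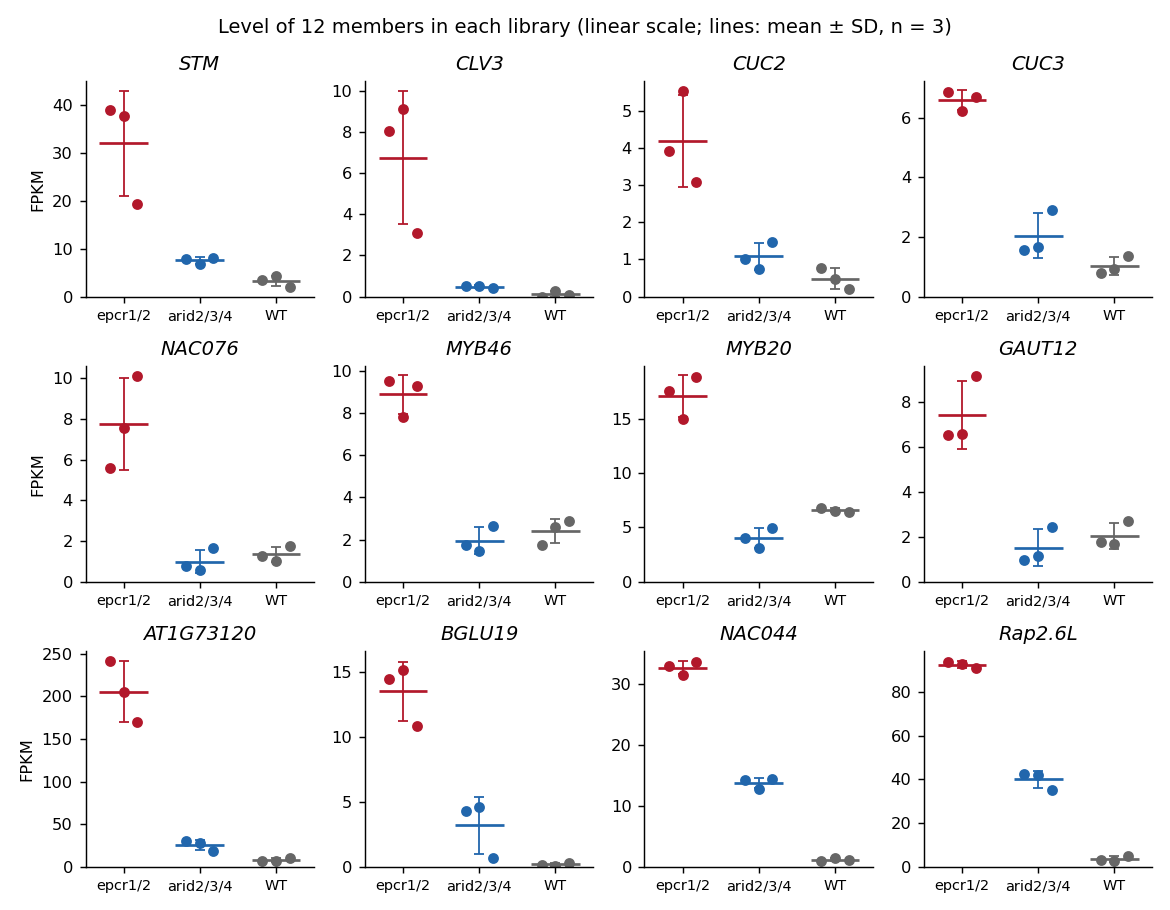
Each panel shows the FPKM of 1 gene in the 9 libraries on a linear axis from 0, with points for replicates 1 to 3 from left to right and lines for the mean ± SD (n = 3). In all 12 panels the 3 epcr1/2 points lie above every other point, which the rule required, and NAC044 and Rap2.6L stand well above WT in arid2/3/4 as well.

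Genes of xylem and secondary cell walls formed a group of 10. Secondary walls are laid down in xylem vessels and fibres as cellulose, xylan and lignin, under NAC and MYB factors. NAC076 (also called VND2), a NAC factor of vessel formation, was at 5.58, 7.57 and 10.1 FPKM in epcr1/2, 0.757, 0.555 and 1.66 FPKM in arid2/3/4, and 1.26, 1.02 and 1.73 FPKM in WT. MYB46, a MYB switch of secondary wall synthesis, was at 9.52, 7.83 and 9.3 FPKM in epcr1/2, 1.72, 1.45 and 2.66 FPKM in arid2/3/4, and 1.75, 2.61 and 2.86 FPKM in WT. For both, arid2/3/4 and WT overlapped. MYB20, a MYB factor of lignin synthesis, was at 17.5, 15 and 18.8 FPKM in epcr1/2, 4.02, 3.11 and 4.94 FPKM in arid2/3/4, and 6.78, 6.46 and 6.45 FPKM in WT, with every arid2/3/4 library below WT. The wall enzyme genes followed. GAUT12 (IRX8), needed for xylan, averaged 7.41 ± 1.51 FPKM in epcr1/2, 1.52 ± 0.812 FPKM in arid2/3/4 and 2.04 ± 0.57 FPKM in WT, and PGSIP3 (GUX2), which adds glucuronic acid to xylan, averaged 6.33 ± 0.397, 1.25 ± 0.337 and 1.39 ± 0.394 FPKM in epcr1/2, arid2/3/4 and WT. IRX6, a COBRA-like protein gene of cellulose deposition, averaged 12 ± 0.647, 2.31 ± 1.07 and 3.8 ± 0.545 FPKM in the same order. The peroxidase gene AT5G51890 averaged 150.3 ± 9.11 FPKM in epcr1/2, 24.9 ± 11 FPKM in arid2/3/4 and 36.6 ± 5.8 FPKM in WT. The laccase gene LAC10 averaged 5.66 ± 1.2 FPKM in epcr1/2, 0.666 ± 0.281 FPKM in arid2/3/4 and 1.6 ± 0.699 FPKM in WT. JLO (LBD30) and AT2G32280 complete the group, with epcr1/2 means of 4.69 and 15 FPKM. NAC076, AT5G51890 and GAUT12 overlap a neighbouring gene on the opposite strand, and the use of strand in counting is not given in the sources used here, so part of their value could belong to the neighbour.

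A list of 38 xylem and secondary wall genes, 7 of them members, was written after the members had been seen, so its counts describe the list and nothing more. Of its 29 tested genes outside the members, 4 rose in epcr1/2 against WT (VND1, LBD18, XCP1 and XCP2), MYB43 fell, and 24 were not called. Over all tested genes 10.8% rose and 17.8% fell in that comparison. XCP1, a protease gene of xylem vessels, was at 77.0, 75.8 and 93.0 FPKM in epcr1/2, 13.0, 13.4 and 32.9 FPKM in arid2/3/4, and 22.4, 21.5 and 45.3 FPKM in WT (log2 fold change against WT 1.51, limma adjusted p = 0.0247). LBD18 rose by 0.98 (limma adjusted p = 0.0047), XCP2 by 1.1 (0.0387) and VND1 by 1.57 (0.0428). With the replicate number as a block, 14 of the 29 rose and 1 fell, beside 19.3% and 31.9% of all tested genes. The count was 1 without WT replicate 1 or 2 or epcr1/2 replicate 1 or 2, 2 without arid2/3/4 replicate 1 or epcr1/2 replicate 3, and 9 without arid2/3/4 replicate 3. Of the single calls, that of LBD18 held in each of these fits. That of MYB43 ended without WT replicate 2 or 3 or epcr1/2 replicate 1 or 2 (-1.01 to -0.73). Against arid2/3/4, 6 of the 29 were higher in epcr1/2, where 4.77% of all tested genes were higher and 5.71% lower (1010 and 1208 genes, against 1536 and 1019 with median centring and 1470 and 1100 with quantile normalization), among them the cellulose synthase genes CESA4 (1.83, limma adjusted p = 0.0181) and IRX1 (1.64, 0.0186). That count was 1 without any of the libraries numbered 1 or 2 of the 2 mutants, and 12 without arid2/3/4 replicate 3. It was 15 with the block and 0 with replicates 1 and 2 averaged as 1 sample. In arid2/3/4 against WT, 0 of the 29 rose and 0 fell by limma, with 1 higher and 7 lower at an unadjusted p under 0.05. The share over all tested genes at that unadjusted p is not given here. With the block, 2 of the 29 rose and 11 fell, beside 19.4% and 25.7% of all tested genes. Without its 7 members the list summed to 342 to 454 FPKM in epcr1/2, 105 to 229 FPKM in arid2/3/4 and 152 to 276 FPKM in WT, with the fibre regulator gene NAC012 (SND1) at 0 in all 9 libraries.

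**Figure D3:**
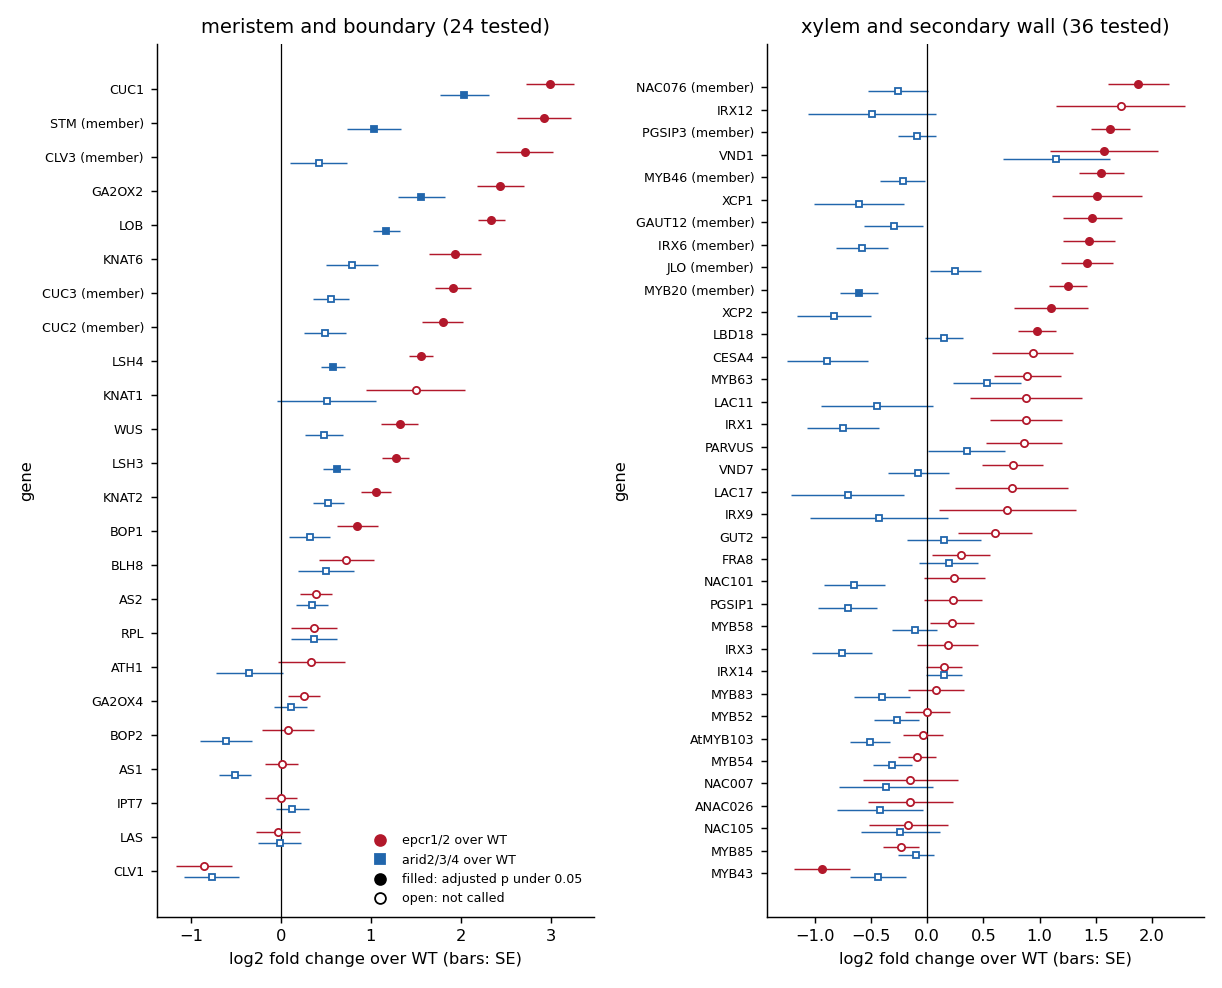
Log2 fold changes over WT with standard errors for the 24 meristem and boundary genes (left) and the 36 tested xylem and secondary wall genes (right), epcr1/2 as circles and arid2/3/4 as squares, filled where the limma adjusted p was under 0.05. Most meristem genes that were filled for epcr1/2 lie right of 0 in arid2/3/4 too, whereas most xylem squares lie left of 0.

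Other cell wall genes numbered 12. GRP3S, a glycine-rich wall protein gene, had the highest level of all members, at 6488, 3971 and 4859 FPKM in epcr1/2, 1773, 1794 and 1494 FPKM in arid2/3/4, and 1336, 1788 and 351 FPKM in WT. It has close relatives, so its reads may be shared among copies. AT3G43270, annotated in the pectin methylesterase inhibitor superfamily, was at 103, 114 and 117 FPKM in epcr1/2, 25.8, 23.7 and 24.4 FPKM in arid2/3/4, and 6.92, 6.95 and 9.22 FPKM in WT, 3 levels without overlap. XTH19, a xyloglucan-modifying enzyme gene, was at 85.6, 91.6 and 147 FPKM in epcr1/2, 27.5, 28.6 and 26.4 FPKM in arid2/3/4, and 17.6, 15.3 and 23.0 FPKM in WT. EPR1, an extensin gene, was at 15.8, 17.3 and 3.47 FPKM in epcr1/2, against 1.16, 0.909 and 0.205 FPKM in arid2/3/4 and 0.0485, 0.0563 and 0.0319 FPKM in WT.

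Genes placed under seeds, desiccation and heat shock numbered 10, although the annotation of some, AT1G73120 and GRP19 among them, names no such role. AT1G73120, annotated as an F-box type protein gene, was at 241, 205 and 169.9 FPKM in epcr1/2, 30.0, 28.2 and 19.0 FPKM in arid2/3/4, and 6.51, 6.43 and 10.1 FPKM in WT. LEA14, a late embryogenesis abundant protein gene, averaged 364 ± 107 FPKM in epcr1/2, 116 ± 17.6 FPKM in arid2/3/4 and 72.6 ± 4.64 FPKM in WT. The small heat shock protein gene AT5G51440 was at 227, 207 and 91.3 FPKM in epcr1/2, 35.5, 33.2 and 13.5 FPKM in arid2/3/4, and 3.06, 3.18 and 9.72 FPKM in WT. In all 3 genes no arid2/3/4 library overlapped WT. GRP19, an oleosin-type gene known from the anther, was at 22.4, 20.9 and 29.2 FPKM in epcr1/2, 10.3, 7.19 and 2.43 FPKM in arid2/3/4, and 0.955, 0.725 and 0.308 FPKM in WT. BGLU19 was at 14.5, 15.2 and 10.9 FPKM in epcr1/2, 4.33, 4.62 and 0.651 FPKM in arid2/3/4, and 0.168, 0.0726 and 0.296 FPKM in WT. Its divergent neighbour AT3G21380, counted with the signalling and defence genes, was at 6.95, 7.45 and 6.8 FPKM in epcr1/2, 2.82, 2.93 and 0.489 FPKM in arid2/3/4, and 0.0248, 0.0287 and 0.274 FPKM in WT. In both neighbours arid2/3/4 replicate 3 was far below replicates 1 and 2. BGLU19, KNATM, PUM9 and AT2G32280 also overlap a gene on the opposite strand. The small gene between BGLU19 and AT3G21380, AT3G21371, was listed at 0 in all 9 libraries. A list of 16 seed maturation genes, chiefly storage proteins, oleosins and their regulators, holds none of the members. Of its 14 tested genes, 10 rose in epcr1/2 and 8 rose in arid2/3/4 against WT (12 and 14 with the block). Over all tested genes 10.8% and 8.78% rose, or 19.3% and 19.4% with the block. The list summed to 234 to 560.3 FPKM in epcr1/2, 61.4 to 1452 FPKM in arid2/3/4 and 2.42 to 3.0 FPKM in WT.

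Transcription factors and related regulators outside these groups numbered 14, among them AT3G22275, annotated as a jasmonate ZIM-domain protein. Rap2.6L, an ERF factor known from wounding and shoot regeneration, was at 93.8, 92.6 and 90.9 FPKM in epcr1/2, 42.6, 41.8 and 35.3 FPKM in arid2/3/4, and 2.92, 2.56 and 4.96 FPKM in WT. NAC044, a NAC factor known for halting the cell cycle after DNA damage, was at 32.8, 31.4 and 33.5 FPKM in epcr1/2, 14.2, 12.8 and 14.3 FPKM in arid2/3/4, and 0.998, 1.49 and 1.05 FPKM in WT. In both genes the 3 genotypes formed 3 levels without overlap. ERF53, a drought-related ERF factor, had a ratio of 11.6 over the other genotypes, at 8.46, 8.66 and 7.99 FPKM in epcr1/2, 0.255, 0.414 and 0.328 FPKM in arid2/3/4, and 0.363, 0.305 and 0.688 FPKM in WT. AT4G28140, of the same DNA-binding family, had a ratio of 10.3. WRKY18, a factor of immune responses, was at 61.3, 65.3 and 72.9 FPKM in epcr1/2, 23.7, 19.5 and 25.2 FPKM in arid2/3/4, and 11.2, 10.7 and 3.94 FPKM in WT. AGL15, whose promoter is shown above, was at 6.49, 8.0 and 8.39 FPKM in epcr1/2, 2.44, 1.75 and 3.22 FPKM in arid2/3/4, and 1.34, 1.27 and 2.52 FPKM in WT. By words in the annotation, 10.9% of the 128 genes and 4.89% of the 27839 genes matched to the annotation were described as transcription factors, and 5.47% against 1.68% as cell wall proteins. The transcription factors found by words include genes of the meristem and xylem groups, such as STM and MYB46, so they are not the 14 of this group.

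The 12 genes with the largest ratios included several with little or no known role. AT1G28000, a pentatricopeptide repeat protein gene, had the largest ratio of 50.6, at 5.67, 7.03 and 4.61 FPKM in epcr1/2, 0.0758, 0 and 0.0437 FPKM in arid2/3/4, and 0, 0.0912 and 0.017 FPKM in WT. AT5G24820, an aspartyl protease gene, had a ratio of 38.4, at 3.1, 3.7 and 1.51 FPKM in epcr1/2 and at most 0.0394 FPKM elsewhere. AT5G26130, of a family of secreted cysteine-rich proteins, had 29.1, at 2.62, 2.36 and 1.4 FPKM in epcr1/2 and at most 0.048 FPKM elsewhere. These 3 genes were near 0 outside epcr1/2. AT2G36815 had 24.7, at 31.8, 35.2 and 36.6 FPKM in epcr1/2, 0, 0 and 1.29 FPKM in arid2/3/4, and 0, 0 and 0.273 FPKM in WT. AT1G20070, an uncharacterized gene, had 15.8, at 283, 311 and 316 FPKM in epcr1/2, 11.1, 17.9 and 15.9 FPKM in arid2/3/4, and 7.01, 6.74 and 11.9 FPKM in WT. AT4G29570, a cytidine deaminase-type gene, had 12.7, at 44.1, 40.0 and 23.0 FPKM in epcr1/2, 1.81, 1.71 and 0.356 FPKM in arid2/3/4, and 0.586, 0.435 and 0.0566 FPKM in WT. AT1G28000 and AT1G20070 each overlap an annotated gene on the opposite strand, and in all 19 of the 128 genes overlap another gene of the table.

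Membrane channels and carriers included 3 water channels and 10 transporters. The plasma membrane aquaporin gene PIP2B was at 1178, 1105 and 479 FPKM in epcr1/2, 181, 158 and 108 FPKM in arid2/3/4, and 189, 196 and 214 FPKM in WT, and it has a near-identical copy that could share its reads. The tonoplast aquaporin gene TIP2;2 was at 463, 429 and 364 FPKM in epcr1/2, 35.9, 38.6 and 64.8 FPKM in arid2/3/4, and 61.0, 75.7 and 167 FPKM in WT. Both were lower in arid2/3/4 than in WT on average, without a call, and with the block TIP2;2 was called lower (limma adjusted p = 0.0375). The remaining water channel gene, PIP2;5, went the other way and was called higher in arid2/3/4 than in WT. Its call ended without replicate 1 or 2 of WT or arid2/3/4 (log2 fold change 0.89 to 1.03). FRD3, which exports citrate for iron transport in the xylem, was at 17.2, 16.7 and 14.5 FPKM in epcr1/2, 2.81, 3.04 and 5.55 FPKM in arid2/3/4, and 4.25, 4.75 and 5.77 FPKM in WT. AT2G04050 and AT2G04070, MATE-type efflux carrier genes of a cluster, averaged 53.9 ± 7.93 and 23.9 ± 3.12 FPKM in epcr1/2, 17.3 ± 7.64 and 6.3 ± 3.01 FPKM in arid2/3/4, and 1.17 ± 0.473 and 0.435 ± 0.289 FPKM in WT. Their neighbour DTX1, of the same type, was at 7.19, 6.95 and 4.89 FPKM in epcr1/2, 12.6, 11.1 and 1.15 FPKM in arid2/3/4, against 2.55, 2.13 and 0.0994 FPKM in WT, and its epcr1/2 and arid2/3/4 values overlapped. The remaining members comprised 19 genes of metabolism, 14 of signalling and defence, 7 of chromatin, RNA and the cell cycle, 6 of ATPases, lipid transfer and the cytoskeleton, and 16 placed in no role group, U12 among them. Among the last, AT1G62480, annotated as similar to a vacuolar calcium-binding protein, had 2025, 2008 and 951 FPKM in epcr1/2, 128, 114 and 105 FPKM in arid2/3/4, and 329, 311 and 195 FPKM in WT.

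Whether these genes also differed between arid2/3/4 and WT was not fixed by the rule, which set 1 ceiling for both. Of the 128 genes, 30 rose in arid2/3/4 against WT, 3 fell and 95 were not called. Over all 21168 tested genes, 8.78% rose and 12% fell. With the replicate number as a block, 44 rose and 10 fell, beside 19.4% and 25.7% of all. Every arid2/3/4 library was above every WT library in 47 of the 128 genes and below in 9, beside 16.6% and 20.7% of all tested genes. The mean was higher in arid2/3/4 than in WT in 95 of the 128, but the share over all tested genes was not computed. In 25 of the 128 every WT library was under 0.5 FPKM, so the order of such low means says little. In 10 of these 25 every arid2/3/4 library was too, so they passed the filter through epcr1/2 alone. Those 10 had little room for a call. They are among the 95 not called and stay in the counts above. The name "raised only in epcr1/2" does not describe the 30 genes that rose by limma, whose level in arid2/3/4 was also above that of WT.

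The 6 genes with the lowest adjusted p in arid2/3/4 against WT were NAC044 (log2 fold change 2.76 ± 0.14, limma adjusted p = 6.45e-05), AT2G18193 (3.46 ± 0.18, 7.01e-05), Rap2.6L (3.22 ± 0.2, 0.000132), AIL7 (1.67 ± 0.13, 0.000273), AT3G43270 (1.57 ± 0.14, 0.000476) and AT2G18190 (1.59 ± 0.17, 0.000966). AT2G18193, an AAA-type ATPase gene, was at 125, 116 and 145 FPKM in epcr1/2, 54.6, 47.9 and 56.0 FPKM in arid2/3/4, and 4.74, 4.22 and 2.91 FPKM in WT. PUM9, of the Pumilio family of RNA-binding proteins, was at 8.06, 9.61 and 12.4 FPKM in epcr1/2, 2.7, 2.35 and 3.99 FPKM in arid2/3/4, and 0.0972, 0.169 and 0.156 FPKM in WT, and rose in arid2/3/4 by 1.79 ± 0.2 (limma adjusted p = 0.0011). The MATE genes AT2G04050 (2.99 ± 0.36, limma adjusted p = 0.00137) and AT2G04070 (2.26 ± 0.34, 0.00374) and the lectin gene AT1G33790 (1.42 ± 0.18, 0.00166) also rose. In all of these genes the 3 genotypes formed 3 levels without overlap, with epcr1/2 highest and WT lowest. Their calls held without any 1 library, and with replicates 1 and 2 averaged as 1 sample.

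By role, 6 of the 10 seed, desiccation and heat shock genes rose in arid2/3/4, 5 of 14 of signalling and defence, 3 of 6 of ATPases, lipid transfer and cytoskeleton, 1 of 7 of chromatin, RNA and cell cycle (PUM9), 3 of the 7 meristem and boundary genes, 3 of 10 transporters, 3 of 14 other transcription factors, 2 of 19 of metabolism, 1 of 12 other cell wall genes and 1 of 3 water channels, while of the 16 in no role group 2 rose and 2 fell. With the block, 6 of the other transcription factors, 3 of the other cell wall genes and 3 of chromatin, RNA and cell cycle rose and none of these fell. With the block, 4 of the 16 in no role group rose and 3 fell, 8 of the seed, desiccation and heat shock genes rose and 1 fell, 3 of metabolism rose and 1 fell, and 1 water channel rose and 1 fell. With replicates 1 and 2 averaged as 1 sample, none of the 10 seed, desiccation and heat shock genes was called. Of the 10 xylem and secondary wall genes none rose by limma and 1 fell, with 1 higher and 3 lower at an unadjusted p under 0.05. At that unadjusted p the share over all tested genes is not given here. With the block, 1 of the 10 rose and 4 fell. MYB20 fell by 0.61 on the log2 scale (SE 0.17, limma adjusted p = 0.0376), a call that ended without any 1 of the libraries other than arid2/3/4 and epcr1/2 replicate 3 (-0.62 to -0.47). Whether the roles differed in this respect was not tested. STM rose by 1.04 ± 0.3 in arid2/3/4 (limma adjusted p = 0.0424), and its call ended without any 1 library other than epcr1/2 replicate 3 (0.83 to 1.22). ERF12 (0.75, limma adjusted p = 0.0452) lost its call without replicate 1 or 2 of any genotype or arid2/3/4 replicate 3 (0.59 to 0.79). With replicates 1 and 2 averaged, 1 of the 7 meristem and boundary genes was called. The calls of AT1G53887 and AT1G62480, which fell, ended without replicate 1 or 2 of WT or epcr1/2, among others (-1.34 to -1.08). That of WRKY18 ended without arid2/3/4 replicate 1 or 2 (1.38 and 1.51). Among the genes placed under seed, desiccation and heat shock, AT1G73120 (1.62 ± 0.24, limma adjusted p = 0.00349) and GRP19 (2.06 ± 0.41, 0.0111) held without any 1 library, but not with replicates 1 and 2 averaged (1.43 and 1.89). The annotation of AT1G73120 and GRP19 names no seed or desiccation role. HVA22E (1.24, limma adjusted p = 0.0178) lost its call without WT replicate 1 or 2 or arid2/3/4 replicate 1 (0.98 to 1.21), and AT1G47980 (0.91, 0.0283) without any WT library or arid2/3/4 replicate 1 or 2 (0.75 to 0.92). AT5G51440 (2.21, limma adjusted p = 0.024) lost its call without replicate 1 or 2 of WT or arid2/3/4 (1.97 to 2.02). BGLU19 (1.64, limma adjusted p = 0.0324) and its neighbour AT3G21380 (1.35, 0.0298) lost theirs without replicate 1 or 2 of any genotype, and BGLU19 also without WT replicate 3 (1.11 to 1.71 over both genes). The 30 genes that rose became 17 to 19 without WT or arid2/3/4 replicate 1 or 2, and 14 with replicates 1 and 2 averaged.

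**Figure D4:**
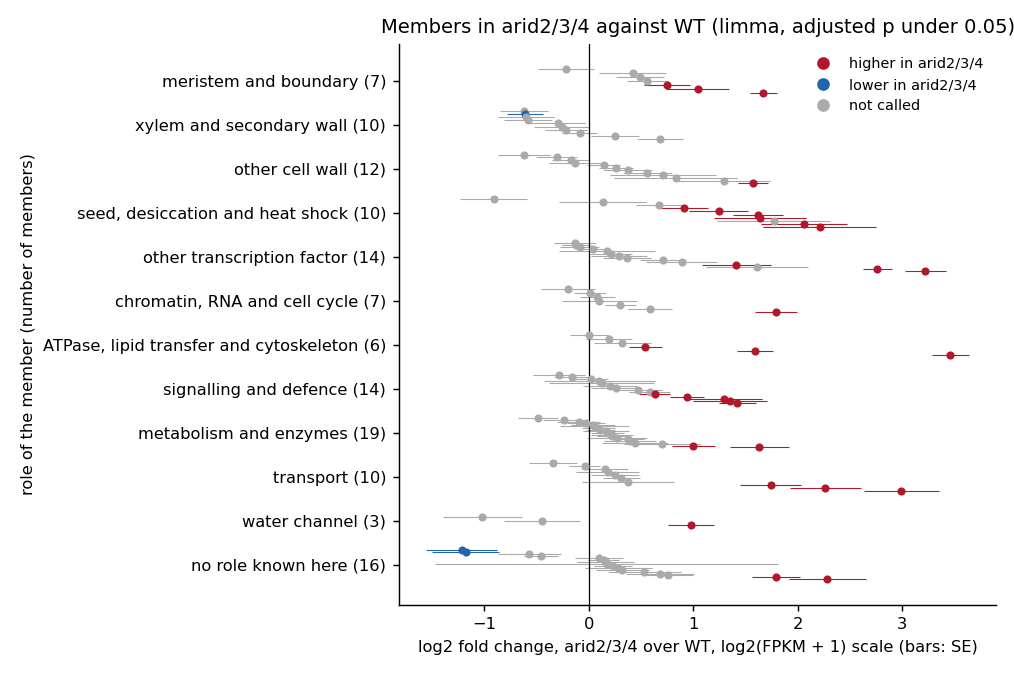
Log2 fold change of arid2/3/4 over WT for each of the 128 genes with its standard error, in rows by role, coloured by limma call at an adjusted p under 0.05. Red points reach 3.46 (AT2G18193), the blue points are MYB20, AT1G53887 and AT1G62480, and the 10 xylem and secondary wall genes lie between -0.62 and 0.68.

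The rule was also applied to replicates 1 and 2 alone, and the genes chosen there were read in replicate 3. Replicate 3 helped to choose the 143 genes, so this is no independent reading of those genes. On replicates 1 and 2 alone, the same rule chose 478 genes, 127 of them among the 143. For those 127 the full rule had already used replicate 3. In replicate 3, 231 of the 478 (48.3%) were again at least 2 times the higher of arid2/3/4 and WT, beside 4.56% of the 16641 genes with an epcr1/2 mean of 2 FPKM or more in replicates 1 and 2. Highest in epcr1/2 were 421 (88.1%), beside 33.5% of those 16641. The median replicate 3 ratio was 1.97 for the 478 and 0.852 for the 16641, leaving out genes at 0 in both arid2/3/4 and WT replicate 3. Within epcr1/2, replicate 3 was the lowest of the 3 libraries for 63 of the 128 genes and the highest for 54, at 0.159 to 5.99 times the mean of replicates 1 and 2 (median 0.969). It was under 0.5 times that mean for 13 genes and over 2 times for 4. Without epcr1/2 replicate 3 the rule chose 285 genes, and without arid2/3/4 replicate 3 it chose 231, in place of 143.

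**Figure D5:**
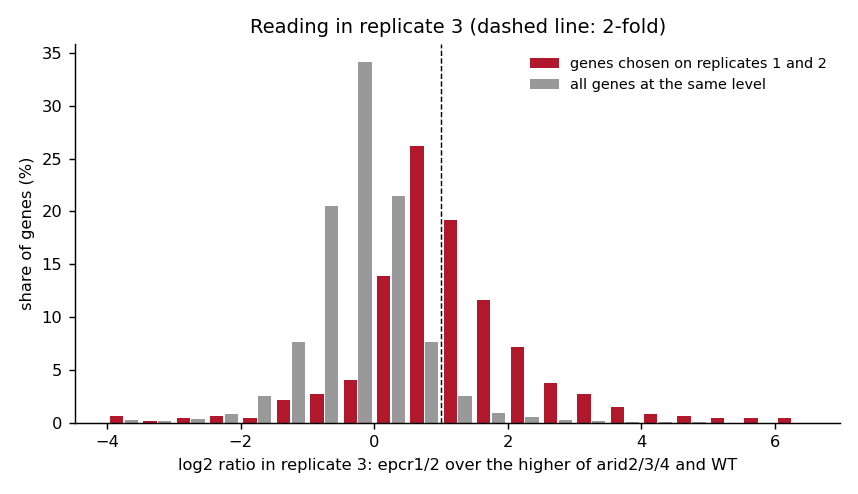
Share of genes by the log2 ratio, in replicate 3, of epcr1/2 over the higher of arid2/3/4 and WT. Red shows the 478 genes chosen on replicates 1 and 2. Grey shows the 16641 genes with an epcr1/2 mean of 2 FPKM or more in those replicates. Genes at 0 in both arid2/3/4 and WT replicate 3 have no ratio and are left out. Values beyond either end are counted in the end bars. The red bars centre near the dashed 2-fold line (median ratio 1.97) and the grey bars just below 0 on the log2 axis (median ratio 0.852).

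The shares of the genes on each chromosome were much as those of all genes. Chromosomes 1 to 5 held 33, 24, 25, 18 and 28 of the 128, or 25.8%, 18.8%, 19.5%, 14.1% and 21.9%, beside 26.4%, 15.7%, 19.8%, 15.2% and 22.9% of the matched genes. Directly next to another member in TAIR10.1 gene order lay 7, in 3 groups, and no share over all genes was computed to set beside this. AT2G18180, AT2G18190 and AT2G18193 formed one, with epcr1/2 means of 2.28, 10.1 and 129 FPKM, while the genes on either side, MPK7 (5.45 ± 0.492 FPKM in epcr1/2 and 9.79 ± 1.39 FPKM in WT) and AT2G18196 (4.42 ± 0.784 and 2.84 ± 0.42 FPKM), were not members. AT1G29090, a cysteine protease gene (6.88 FPKM in epcr1/2), and AT1G29100 (3.42 FPKM) formed another, and AT5G26130 and LOG9, of a family of cytokinin-activating enzymes (2.13 and 3.36 FPKM), the last. Within 5 genes of another member lay 13 of the 128, in 6 groups that add the MATE pair, BGLU19 with AT3G21380, and AT1G61255 with U12. U12 was at 458, 86.9 and 79.8 FPKM in epcr1/2, 0, 0 and 28.1 FPKM in arid2/3/4, and 0, 0 and 19.3 FPKM in WT, with epcr1/2 replicate 1 far above the others. AT2G18190 and AT2G18193 resemble each other in annotation, so reads could be split between them.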

How the data were processed

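Messenger RNA of seedlings was sequenced from 3 epcr1/2, 3 arid2/3/4 and 3 WT libraries. Reads were processed by the authors with STAR 2.5.2b and Cuffdiff on TAIR10, per the submitters' processing notes. The deposited values were taken to be FPKM, since they are not whole numbers and Cuffdiff is named, although the header names no unit. They keep no counts, so depth is a rough estimate and no count test was run.

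The rule was applied to the deposited values. Tests used limma 3.58.1 in R 4.3.3 on log2(FPKM + 1), with all 9 libraries, 1 mean per genotype, an empirical Bayes trend, a filter of 0.5 FPKM in at least 3 libraries and Benjamini-Hochberg adjustment, after a check on simulated data. A fold change on this scale understates the change of low genes. The simulated libraries were drawn independently of each other, so that check cannot give the error rate of the test on these libraries. Same-numbered libraries deviated together (r of 0.635 to 0.835 in all 9 pairs), and a blocked fit on those numbers was made too. Libraries of unlike number were not compared across genotypes. Since replicates 1 and 2 were nearly alike, these values cannot tell a pairing by number from a split of replicate 3 from replicates 1 and 2. Alternatives were another pseudocount, other filters, centring, quantile normalization, array weights, only the groups compared, and leaving out each library. Averaging replicates 1 and 2 was added after seeing the data.

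Names, biotypes, lengths and positions came from the TAIR10.1 annotation by locus tag (27839 genes matched, 278 not, all at 0). The table holds no coordinates. The members and lists were chosen with earlier results of these data known, and the xylem list and the roles were written after the members had been seen. Named genes were the 12 with the highest level, the 12 with the largest ratio, those at the thresholds, on the lists, next to another member, called in arid2/3/4 (up to 6), and up to 12 of well-known function. Other genes named were chosen after their values were seen.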

Additional observations from a re-analysis of the deposited data

How the results depend on the processing

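Over all tested genes, 6039 were called in epcr1/2 against WT, 2218 in epcr1/2 against arid2/3/4 and 4399 in arid2/3/4 against WT. With the replicate block these counts were 10832, 6039 and 9545, and with array weights 14648, 12518 and 13934. With replicates 1 and 2 averaged as 1 sample, an alternative added after seeing the data, 49 were called against arid2/3/4 in epcr1/2 and 2003 in arid2/3/4 against WT, and with only the groups compared 1477 in epcr1/2 against arid2/3/4. Leaving out 1 library gave 3708 to 7575, 834 to 3284 and 2169 to 7064 calls.

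Of the 128 genes, the 30 higher in arid2/3/4 than in WT became 44 with the replicate block, 60 with array weights, 14 with replicates 1 and 2 averaged and 17 to 34 without 1 library. The 3 lower became 10 with the replicate block, 5 with a pseudocount of 0.1, 19 with array weights, 0 with replicates 1 and 2 averaged (a fit with fewer samples) and 0 to 7 without 1 library. The 9 meristem genes outside the members that rose in epcr1/2 against WT became 14 with array weights and 8 to 10 without 1 library. The 4 xylem genes became 10 with median centring or quantile normalization, 14 with the replicate block, 8 with only the groups compared, 18 with array weights and 1 to 9 without 1 library. The rule chose 339 genes at a ratio of 1.5, 51 at a ratio of 3, and 145 to 285 without 1 library. The telobox count of 8 became 4 in the 250 bases before the start, and the 7 adjacent members became 13 within 5 genes. Median centring moved the median log2 fold change of all genes in epcr1/2 against WT to 0.06, against -0.12 without it. Of 56 single-gene calls that were recomputed, none changed sign under any alternative run, and the replicate block ended none of them. Averaging replicates 1 and 2 ended 29 of the 56, and leaving out 1 library ended 5 to 23. Of 13 calls in epcr1/2 against WT, 8 held in every run. In epcr1/2 against arid2/3/4, 0 of 11 held in every run, and in arid2/3/4 against WT 16 of 32. Where counts moved, the cause was not tested. The deposited values hold no counts, so no counting error is attached to low values.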
